A study of Mus musculus with 36 samples.

Results

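Cytosolic, endoplasmic reticulum and mitochondrial chaperone genes were followed across 5 skeletal muscles of a mouse model of nemaline myopathy. The genes were those whose symbol begins with Hspa, Hspd, Hspe, Hsph, Hsp90, Dnaj or Pdia, the numbered Cct subunits, Tcp1, Stip1, and the heat shock factors Hsf1 and Hsf2. They were found as 80 probe sets annotated to a single symbol, for 57 of the 8247 genes with such a probe set, and of several probe sets for a gene the brightest on average was used. The 57 genes comprised 9 of the Hsp70 and Hsp110 families and 2 of the Hsp90 system (Hsp90aa1 and Stip1). Another 9 genes encode subunits of the chaperonin TRiC, with Cct6a and Cct6b counted as separate genes. The rest were 11 of the endoplasmic reticulum, 5 of mitochondria, 20 other J proteins and 1 heat shock factor. All 57 but Hsf2 were tested. Hsf2 reached a scaled signal of 100 on 1 array and did not pass the filter on low values, which required that signal on 6 arrays. Hsf1 and Hsp90ab1 had no single-symbol probe set and were not analysed here. RNA from each muscle was hybridized to Affymetrix MG_U74Av2 arrays, 36 in all (18 wild type and 18 transgenic). Each array carried RNA pooled from 3 to 5 mice, and 8 µg of total RNA was labelled.

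The transgenic mice carried alpha tropomyosin slow, a thin filament protein of slow muscle fibres, and the wild-type mice did not. The labels used here state neither the strain nor the promoter, nor which form of the protein was expressed. Muscles were snap frozen at 7 or 10 months of age. Diaphragm, gastrocnemius and tibialis anterior had 4 arrays for each genotype. Extensor digitorum longus and plantaris had 3. Muscle, genotype and age made 20 groups, of which 16 held 2 arrays, numbered 1 and 2 by their titles, and 4 held only number 1, so that there were 20 arrays of number 1 and 16 of number 2. The deposited experiment record was filled in for all arrays of number 1 and empty for all arrays of number 2, with 0 exceptions. Nothing in the labels says that the arrays of a group came from separate pools of mice, so p-values may measure technical spread alone.

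Chaperones bind unfolded or newly made proteins and use ATP to fold, move or hold them. Hsp70 proteins work with J proteins, which deliver the substrate and start ATP hydrolysis, and with Hsp110 proteins, which exchange the nucleotide. Hsp90 and the ring-shaped TRiC finish the folding of selected clients, and muscle myosin, actin and tubulin depend on these systems. In the endoplasmic reticulum the Hsp70 Hspa5, the Hsp90 Hsp90b1 and the protein disulfide isomerases fold secreted proteins, and their genes are raised by the unfolded protein response. Heat shock factor raises Hspa1a, Hspa1b, Hsp90aa1, Hsph1 and Dnajb1 in stressed cells. In skeletal muscle these genes are known to respond to exercise, heat and damage.

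The labelled tissue was borne out by fibre genes, since all 12 genes of a muscle fibre list passed the filter and their summed signal lay between 117219 and 431253. Tpm3, the gene of alpha tropomyosin slow, differed between genotypes by 0.36 ± 0.18 on the log2 scale averaged over muscles (limma, adjusted p = 0.29), and whether its probe set detects the transgene was not tested. The diaphragm arrays also carried hepatocyte transcripts. The summed signal of 20 hepatocyte genes was 70259 to 258106 on the 4 wild-type diaphragm arrays, 10223 to 198893 on the 4 transgenic ones, and 1884 to 6266 on the limb muscle arrays. The ratio of 3' to 5' signal of Gapdh, a measure of RNA integrity, had a median of 0.95 on arrays of number 1 and 1.18 on those of number 2. That of Actb was 1.10 and 1.43. For 2 arrays of number 2 the Gapdh ratio exceeded 3 (gastrocnemius wild type at 10 months, 3.32, and plantaris wild type at 7 months, 3.69). The record of 1 transgenic gastrocnemius array of number 1 at 7 months names plantaris. The scanner file of the transgenic extensor digitorum longus array at 10 months was incompletely recovered, per the labels. In RNA of whole muscle, fewer cells of a type and less RNA per cell cannot be told apart.

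The first comparison asked which chaperone genes differ between transgenic and wild-type muscle, averaged over the 5 muscles. Hspa1l and Dnajb6 rose in transgenic muscle, and so did 2 companions of the chaperone system, Bag3 and Hspb8. Hspa1l encodes an Hsp70 that is best known from testis and lies beside Hspa1a on the opposite strand. Dnajb6 encodes a J protein that keeps aggregation-prone proteins soluble, is found at the muscle Z-disc, and is mutated in a human limb-girdle muscular dystrophy. In the model used here, which has no term for array number, these 2 of the 56 tested chaperone genes were past the threshold (adjusted p under 0.05 in limma, over all 9322 tested probe sets), or 3.6%, where 1.17% of all tested probe sets passed (0.858% upward and 0.311% downward). Changes are given as differences of log2(scaled signal + 50) ± SE, which understate those of dim probe sets. The median change of the 56 genes was 0.11 against -0.03 over all tested probe sets, with 39 of the 56 above 0.

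For Hspa1l the wild-type diaphragm arrays read 524, 688, 588 and 541, and the transgenic ones 1374, 1054, 1388 and 1941. No transgenic diaphragm array fell to the level of a wild-type one. In extensor digitorum longus the wild-type arrays read 373, 861 and 785 and the transgenic ones 1498, 1287 and 988, again without overlap. Signals overlapped in the other 3 muscles. Transgenic signal exceeded the wild-type mean of its own muscle on 17 of 18 arrays. The average change was 0.71 ± 0.12 (limma, adjusted p = 0.00066). By muscle it was 1.20 ± 0.24 in diaphragm (limma, adjusted p = 0.0048), 0.91 ± 0.28 in extensor digitorum longus, 0.73 ± 0.24 in tibialis anterior, 0.50 ± 0.28 in plantaris and 0.19 ± 0.24 in gastrocnemius. Only the change in diaphragm passed the threshold, and whether the muscles differ from each other was not tested.

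For Dnajb6 the wild-type diaphragm arrays read 827, 1001, 935 and 1249, and the transgenic ones 2263, 1537, 2075 and 2186. The genotypes did not overlap in diaphragm and overlapped in the 4 limb muscles, where wild-type signal ran from 1105 to 2638 with a median of 1882. Wild-type diaphragm was thus the low group, and transgenic diaphragm lay within the range of wild-type limb muscle. The average change was 0.47 ± 0.09 (limma, adjusted p = 0.0036), and 16 of 18 transgenic arrays exceeded the mean of the wild-type arrays of their muscle. In diaphragm it was 0.97 ± 0.19 (limma, adjusted p = 0.0038) and in the limb muscles it ran from 0.18 ± 0.22 in plantaris to 0.65 ± 0.22 in extensor digitorum longus. The other probe set of Dnajb6, 96120_at, gave an average change of -0.06 and a diaphragm change of -0.09 (limma, adjusted p = 0.76 and 0.91), so the rise rests on probe set 104625_at.

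**Figure D1:**
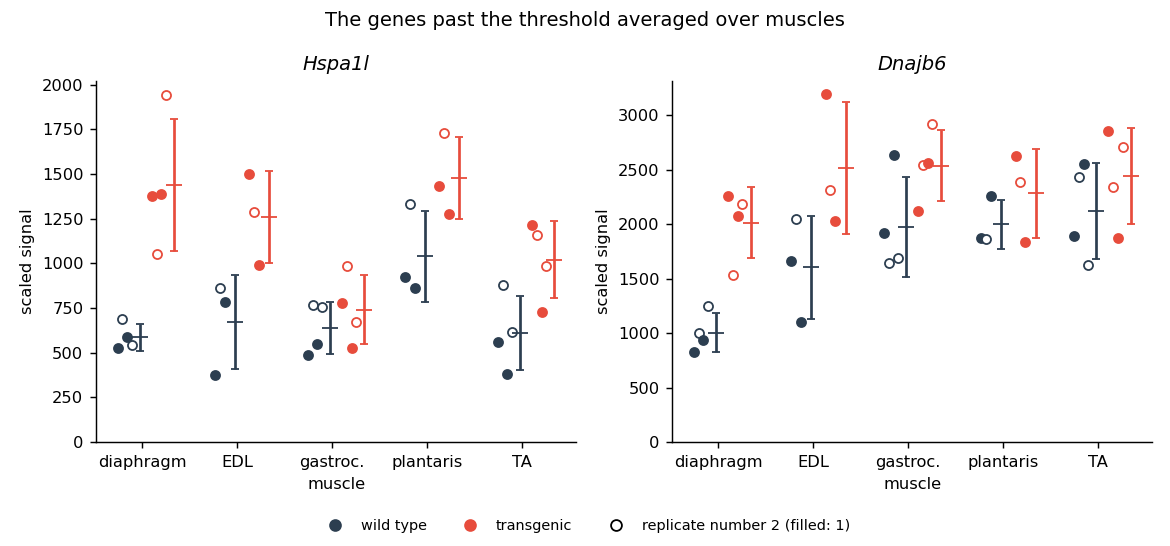
Scaled signal (linear axis from 0) of Hspa1l and Dnajb6 in each muscle, with 1 point per array, filled for number 1 and open for number 2, and the mean ± SD beside each group. In diaphragm the 4 transgenic arrays lie above all 4 wild-type arrays for both genes; EDL is extensor digitorum longus, gastroc. gastrocnemius and TA tibialis anterior.

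With the 4 limb muscles alone neither passed, at 0.58 for Hspa1l (limma, adjusted p = 0.065) and 0.35 for Dnajb6 (limma, adjusted p = 0.19). With a random block for arrays of the same genotype, age and number, which may share pools of mice, Hspa1l kept its call and Dnajb6 did not (0.49, adjusted p = 0.21). In diaphragm the hepatocyte genes moved with genotype as well, 17 of 20 being lower in transgenic arrays. With the hepatocyte signal as a covariate the diaphragm changes were 1.04 ± 0.36 for Hspa1l and 0.81 ± 0.27 for Dnajb6, and neither passed (limma, adjusted p = 1 for both). Slow fibre genes moved with genotype too: 5 of 7 tested rose on average over the muscles, with a summed signal of 2869 to 128889 on wild-type and 16866 to 158622 on transgenic arrays, and their part in the chaperone changes was not tested.

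The promoter of Dnajb6 is shown because it was 1 of 4 chaperone promoters with a match to the heat shock element, searched as GAA, TTC and GAA with 2 bases of any kind between each, on both strands, from 250 bases before to 50 bases after each RefSeq gene start. Promoters in build GRCm38.p6 were matched for 50 of the 57 genes, and 4 of the 50 (8%) held the element, against 0.662% of all 27025 genes with a promoter in the table. The others were Hspd1, Hspe1 and Hsph1. The match in Dnajb6, from -46 to -34 before the start, is in capitals within the 150 bases before it (chr5:29735748-29735897, plus strand). A match is a description of the letters and does not show binding.
Dnajb6: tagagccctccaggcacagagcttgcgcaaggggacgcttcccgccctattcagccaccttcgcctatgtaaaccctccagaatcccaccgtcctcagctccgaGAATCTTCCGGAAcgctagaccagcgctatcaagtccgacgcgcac

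By muscle, no chaperone gene passed for genotype in extensor digitorum longus, gastrocnemius, plantaris or tibialis anterior in limma, where 0.0107%, 0%, 0% and 0.150% of all probe sets did. At an unadjusted p under 0.05 there were 4, 0, 0 and 6 of the 56, against 601, 209, 174 and 592 of the 9322. In diaphragm the 2 genes above were the only ones past the threshold, again 3.6% against 3.42% of all probe sets, which is close to the background. Both were upward, where 1.19% of all probe sets rose and 2.23% fell. The largest limb changes among the 56 were for Tcp1, a TRiC subunit, at 1.06 ± 0.30 in extensor digitorum longus, and for Hspa1a at 1.23 ± 0.51 in tibialis anterior (limma, adjusted p = 0.46 and 0.71).

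Of the companion genes, 1 of 20 tested co-chaperones and 1 of 3 tested small heat shock proteins passed for the average over muscles. Both were upward, where 0.858% of all probe sets rose. Bag3 encodes the partner of Hsp70 that clears damaged filament proteins, and Hspb8 the small heat shock protein that binds to it. Bag3 signal ran from 1897 to 4162 with a median of 2487 on wild-type arrays and from 2942 to 5569.7 with a median of 4207 on transgenic ones. The ranges overlapped, and the average change was 0.70 ± 0.07 (limma, adjusted p = 1.7e-06). Hspb8 changed by 0.36 ± 0.07 (limma, adjusted p = 0.0062), from a median of 7870.1 to one of 9781. No gene passed among the 17 other endoplasmic reticulum folding genes, the 12 regulators of the unfolded protein response, or the 8 prefoldin and chaperonin partners that were tested.

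The genotype contrast was then estimated for each set of arrays. The model had a mean for each of the 20 groups and an effect of array number in each genotype. Both estimates average over all 20 groups. At number 2 the 4 groups without such an array therefore enter through their number 1 arrays and the effect of array number. On arrays of number 2 the stress-inducible chaperones Hspa1a, Hspa1b, Hsp90aa1 and Hsph1 were higher in transgenic muscle, together with Hspa1l, Cct8 and Dnajb2. Dnajb13 was lower. With a random block for arrays that may share pools, Hspa1a (1.60) and Dnajb13 (-0.93) kept their calls (limma, adjusted p = 0.032 and 0.046). The other 6 did not, with adjusted p of 0.053 for Hsph1, 0.055 for Dnajb2, 0.077 for Hsp90aa1, 0.077 for Cct8, 0.1 for Hspa1l and 0.11 for Hspa1b (limma). On arrays of number 1 Hspa1l alone was higher, and it lost this call with scan day as a block. Scan day went largely with genotype on these arrays. At 10 months the wild-type arrays of diaphragm, gastrocnemius, plantaris and tibialis anterior were scanned on day 3. The transgenic arrays of these muscles were scanned on day 4. Genotype and scan day cannot be fully told apart there. At number 2 the calls were 8 of 56 genes (14.3%), 7 upward (12.5%), where 6.31% of all probe sets passed, 2.33% upward and 3.98% downward. At number 1 the share was 1.8% against 0.762% (0.547% upward and 0.215% downward). The median change of the 56 genes was 0.17 at number 2 and 0.06 at number 1, against -0.05 and -0.00 over all probe sets.

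Hspa1a encodes the major stress-inducible Hsp70. On arrays of number 2 its wild-type signal was 489 at the lowest, 1071 at the median and 2459 at the highest, and its transgenic signal 2093, 3413 and 7133. The ranges overlapped only at the wild-type diaphragm array of 10 months and the wild-type plantaris array of 7 months (2362), and the transgenic array was the higher in 8 of 8 pairs of the same muscle and age. On arrays of number 1 the wild-type values were 535, 1257 and 4436 and the transgenic ones 552, 1337 and 3911, with the transgenic array higher in 5 of 10 pairs. The genotype change was 1.64 ± 0.27 at number 2 (limma, adjusted p = 0.0056) and -0.01 ± 0.22 at number 1 (limma, adjusted p = 0.99). The difference of these, 1.65 ± 0.35, did not pass (limma, adjusted p = 0.12). Read the other way, Hspa1a was higher on number 2 than on number 1 in 8 of 8 transgenic groups (1.32 ± 0.25, limma, adjusted p = 0.00076) and in 4 of 8 wild-type groups (-0.33 ± 0.25, limma, adjusted p = 0.32).

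Hspa1b encodes a protein nearly identical to that of Hspa1a. At number 2 its wild-type signal was 343, 614 and 1516 (lowest, median and highest) and its transgenic signal 750.5, 1064 and 3013. These ranges overlapped, though the transgenic array was higher in 8 of 8 pairs. The genotype change was 0.97 ± 0.27 (limma, adjusted p = 0.041). At number 1 it was -0.25 ± 0.22, with transgenic signal higher in 4 of 10 pairs. Signal fell from number 1 to number 2 in 8 of 8 wild-type groups (-0.85 ± 0.25, limma, adjusted p = 0.012), while the transgenic change was 0.38 ± 0.25. The highest value of all was 4676, on the wild-type diaphragm array of number 1 at 7 months, where Hspa1a also reached its wild-type maximum.

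The promoters of Hspa1a (chr17:34972157-34972306, minus strand) and Hspa1b (chr17:34959239-34959388, minus strand) are shown because these genes are near-identical copies whose probe sets could share targets, so their values are not taken as separate evidence. Of the 150 bases before each RefSeq start (GRCm38.p6), 149 were identical. The strict form of the heat shock element had no match in either window.
Hspa1a: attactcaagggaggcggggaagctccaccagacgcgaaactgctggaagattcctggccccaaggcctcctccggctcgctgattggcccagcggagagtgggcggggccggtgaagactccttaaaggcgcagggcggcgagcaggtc
Hspa1b: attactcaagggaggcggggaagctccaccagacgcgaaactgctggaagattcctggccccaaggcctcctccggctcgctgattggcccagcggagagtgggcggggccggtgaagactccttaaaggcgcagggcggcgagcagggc

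Hsph1, an Hsp110 that resets Hsp70, read 1547, 1599 and 2022 (lowest, median and highest) on wild-type arrays of number 2 and 1957, 2556 and 3215 on transgenic ones. The overlap was limited to 1 transgenic array, from tibialis anterior at 10 months, and 1 wild-type array, from gastrocnemius at 7 months. The change was 0.60 ± 0.12 (limma, adjusted p = 0.014), against 0.10 ± 0.10 at number 1. Hsp90aa1, the inducible cytosolic Hsp90, read 513, 979 and 1841 in wild-type and 1028, 1776 and 4041 in transgenic muscle at number 2, higher in 8 of 8 pairs. Its ranges overlapped, and the change was 0.86 ± 0.21 (limma, adjusted p = 0.028) against -0.15 ± 0.17 at number 1. Dnajb1, the J protein that heat shock raises with Hspa1a, showed 0.31 ± 0.22 at number 2 and -0.45 ± 0.18 at number 1 and passed in neither.

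**Figure D2:**
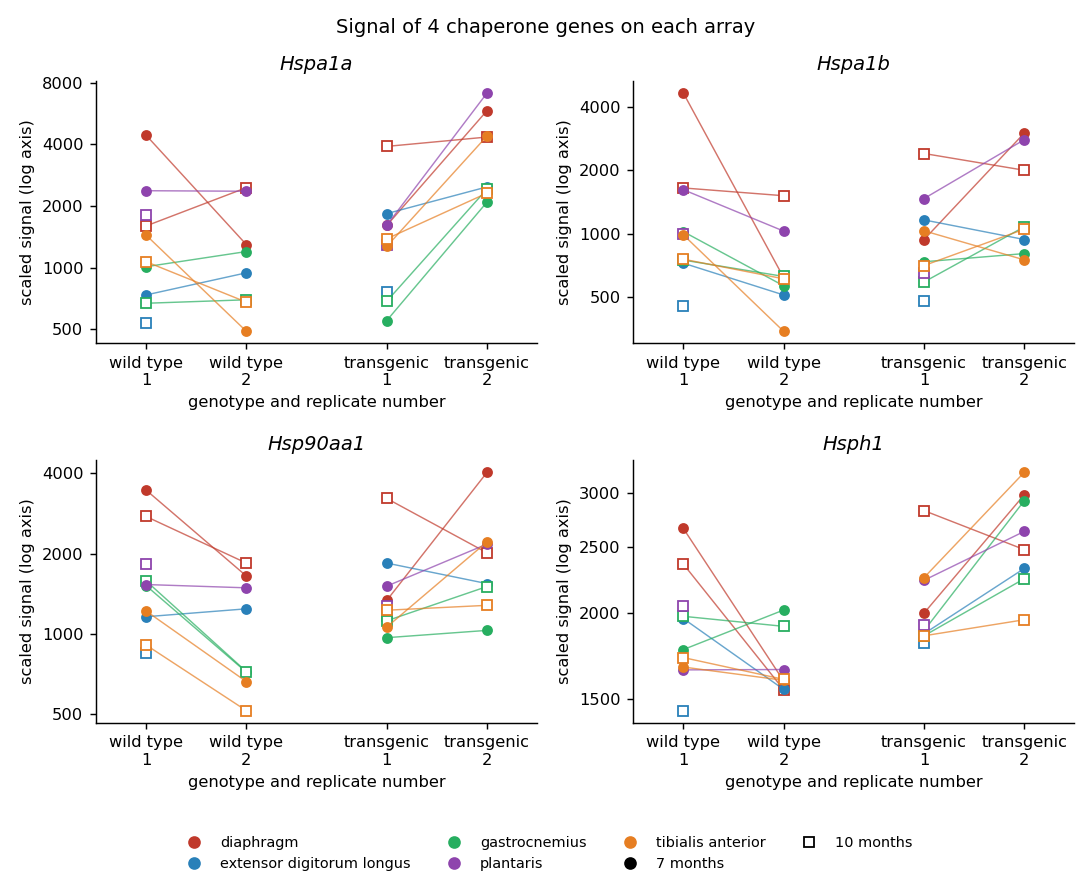
Scaled signal on a log axis of Hspa1a, Hspa1b, Hsp90aa1 and Hsph1 on each of the 36 arrays, by genotype and array number, with lines joining arrays of the same muscle, genotype and age. Hspa1a rises along all 8 transgenic lines, from 552 to 3911 at number 1 to 2093 to 7133 at number 2, while the wild-type lines go both ways.

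Cct8, a TRiC subunit, read 296, 417 and 644 on wild-type and 561, 685 and 841 on transgenic arrays of number 2, and was higher in 7 of 8 pairs. The ranges touched between 561 and 644. Its change was 0.65 ± 0.16 (limma, adjusted p = 0.03), and 0.32 ± 0.13 at number 1. At number 2 the TRiC genes other than Cct6b showed positive values, 8 of 9 with a family median of 0.38, but Cct8 alone passed. Dnajb2, a J protein that hands clients to the ubiquitin system, changed by 0.54 ± 0.11 (limma, adjusted p = 0.015). Dnajb13, a J protein of sperm and cilia, read 314, 848 and 1146 on wild-type and 263, 399 and 575 on transgenic arrays of number 2, with overlap, and changed by -0.95 ± 0.18 (limma, adjusted p = 0.01). A dimmer probe set of Dnajb13 gave 0.04 (limma, adjusted p = 0.93). Hspa1l changed by 0.83 ± 0.11 at number 1 (limma, adjusted p = 0.00039) and 0.45 ± 0.13 at number 2 (limma, adjusted p = 0.048). For Dnajb6 the values were 0.47 ± 0.12 and 0.45 ± 0.15, neither past the threshold.

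**Figure D3:**
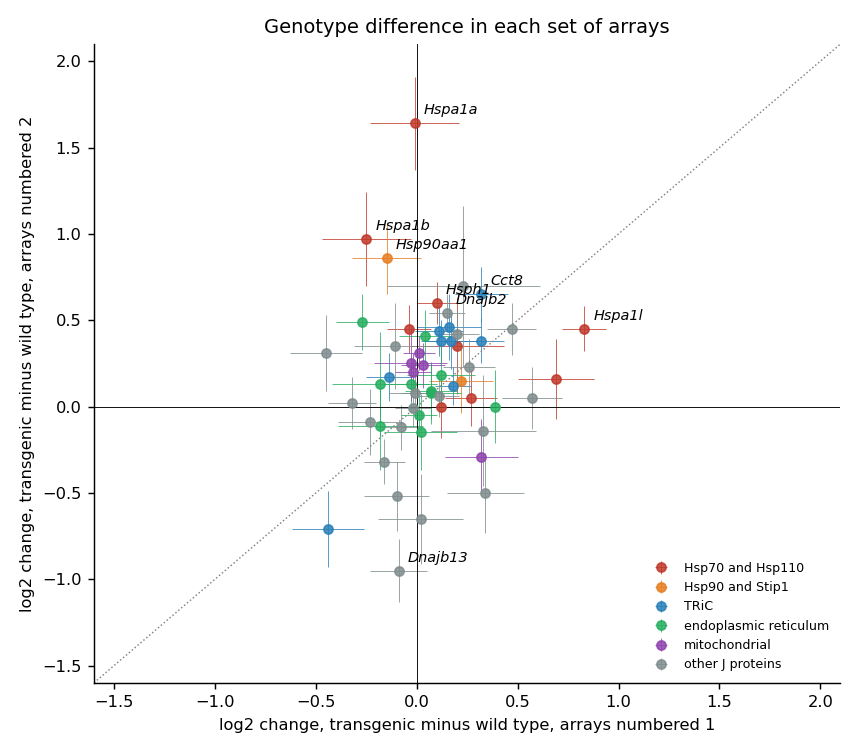
Log2 change (transgenic minus wild type, ± SE) of the 56 tested chaperone genes. Model estimates for number 1 (horizontal) and number 2 (vertical) each average over all 20 groups. Points are coloured by family, the line of equality is dotted and the genes past the threshold in either set are named. Hspa1a lies at -0.01 on the horizontal and 1.64 on the vertical axis, and Hspa1l at 0.83 and 0.45.

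The test of the difference between the sets passed for no chaperone gene, and for 0.0107% of all probe sets (limma). At an unadjusted p under 0.05 there were 14 of the 56 and 1128 of the 9322. Among the others the difference was 1.23 ± 0.35 for Hspa1b and, downward, -0.86 ± 0.23 for Dnajb13 (limma, adjusted p = 0.22 and 0.2). The calls at number 2 rested on few arrays and on a spread shared by both sets. With the arrays of number 2 fitted alone no chaperone gene passed, Hspa1a coming to 1.60 (limma, adjusted p = 0.11), and without the 2 arrays of high Gapdh ratio 3 did. Hspa1a, Hsph1, Dnajb2 and Dnajb13 passed in every one of 32 refits that left out 1 array, while the count of chaperone genes ran from 4 to 13. It was 13 without the plantaris wild-type array of 7 months and number 2. It was 4 without 1 array of number 2 from gastrocnemius wild type at 10 months, gastrocnemius transgenic at 10 months, plantaris transgenic at 7 months or tibialis anterior wild type at 10 months. It was 5 without 1 array of number 2 from diaphragm wild type or transgenic at 7 months, tibialis anterior wild type at 7 months or tibialis anterior transgenic at 10 months. Hspa1l lost its call at number 2 in 26 of the 32.

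Among companions at number 2, Bag3 (0.78 ± 0.12), Hspb8 (0.44 ± 0.12) and St13, the Hsp70-interacting co-chaperone (0.62 ± 0.13), passed upward. Pfdn5 of prefoldin (-0.59 ± 0.16), the endoplasmic reticulum lectin Canx (-0.57 ± 0.17), Sdf2 (-0.98 ± 0.28), Asns (-0.56 ± 0.13) and the immediate early gene Fosb (-0.81 ± 0.15) passed downward (limma, adjusted p = 0.0056, 0.037, 0.016, 0.035, 0.047, 0.041, 0.028 and 0.01 in this order). Of all probe sets 2.33% passed upward and 3.98% downward at number 2. The lists of these genes held 3 tested small heat shock proteins, 20 co-chaperones and 8 prefoldin and chaperonin partners. They also held 17 endoplasmic reticulum folding genes, 12 unfolded protein response regulators and 15 immediate early and temperature genes. How these calls fare with the random block is not given here. At number 1 only Bag3 passed (0.61 ± 0.10, limma, adjusted p = 0.0029), where 0.547% of all probe sets passed upward.

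The arrays of number 2 were next set against those of number 1 within the 16 groups that had both. Of the 11 endoplasmic reticulum chaperone genes 7 were lower on number 2 and 1 was higher, and of the 9 TRiC genes 3 were lower and 1 was higher. Among single genes Dnajb4 (-1.16 ± 0.12) and Cct8 (-1.02 ± 0.11) were lower by more than 1 on the log2 scale, both measured above the floor in every group (limma, adjusted p = 2.5e-07 and 2.8e-07). Of the 56 genes 28 passed, 8 upward and 20 downward. Of all probe sets 43.2% passed, 19.0% upward and 24.2% downward, so the share of chaperone genes was near the background, with more of them downward (35.7%). Their median change was -0.15 against -0.01 over all probe sets. In wild type 25 genes passed, 7 upward and 18 downward (44.6%, against 35.8% of all, 16.9% upward and 18.9% downward). In transgenic muscle 18 passed, 5 upward and 13 downward (32.1%, against 21.4% of all, 7.38% upward and 14.0% downward). In both genotypes 14 genes passed, which is 56.0% of the wild-type and 77.8% of the transgenic calls. All 14 went the same way, 4 upward (Cct7, Dnaja2, Dnajc8 and Dnajc10) and 10 downward (Cct2, Cct3, Cct8, Dnajb4, Dnajb5, Dnajb9, Dnajb11, Dnajc21, Pdia3 and Pdia6). The ratios of 3' to 5' signal given above also differed between the numbers, and their part in these changes was not tested. Without the 2 arrays of high Gapdh ratio the count was 28, of which 27 genes were the same.

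Of the 9 Hsp70 and Hsp110 genes 3 rose and 2 fell, where 19.0% of all probe sets rose and 24.2% fell. Hspa8, the constitutive Hsp70, read 4814, 5967 and 8521 (lowest, median and highest) on wild-type arrays of number 1 and 3664, 4436 and 4831 on those of number 2. The sets overlapped only between 4814 and 4831, and Hspa8 fell in 8 of 8 wild-type groups (-0.61 ± 0.13, limma, adjusted p = 0.001). In transgenic muscle the change was -0.11 ± 0.13, and over both genotypes it was -0.36 ± 0.09 (limma, adjusted p = 0.0027). Hspa14, an Hsp70 linked to the ribosome, fell as well (-0.56 ± 0.18, limma, adjusted p = 0.016). Its signal lay near the floor, reaching 100 on 17 of the 36 arrays. Hspa1a (0.50 ± 0.17) and Hspa1l (0.33 ± 0.09) rose (limma, adjusted p = 0.026 and 0.0043), the former through the transgenic arrays described above. Hspa4, of the Hsp110 family, rose by 0.46 ± 0.11 (limma, adjusted p = 0.0013) by its brightest probe set, but 3 of its 4 other probe sets fell, by 0.59, 0.41 and 0.52 (limma, adjusted p = 0.00021, 0.049 and 0.0038), so its direction depends on the probe set. Of the Hsp90 system Stip1, the adaptor between Hsp70 and Hsp90, fell by 0.48 (SE 0.13; limma, adjusted p = 0.0043). Hsp90aa1 fell in wild type (-0.66 ± 0.19, limma, adjusted p = 0.0098) and gave 0.34 ± 0.19 in transgenic muscle.

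The TRiC genes, whose products form 1 ring complex, did not all go one way. Cct8 read 796, 1039 and 1329 on wild-type arrays of number 1 and 296, 417 and 644 on those of number 2, with no overlap. On transgenic arrays it read 985, 1323 and 1547 and then 561, 685 and 841, again with no overlap. It was lower on number 2 in 16 of 16 groups (-1.02 ± 0.11, limma, adjusted p = 2.8e-07). Cct3 was lower in 16 of 16 groups (-0.64 ± 0.08, limma, adjusted p = 5e-06) and Cct2 in 15 of 16 (-0.57 ± 0.10, limma, adjusted p = 0.00016). Cct7 was higher in 16 of 16 (0.41 ± 0.07, limma, adjusted p = 8e-05). The other Cct3 probe sets did not follow the first, since 98153_at gave -0.17 (limma, adjusted p = 0.15) and 161238_f_at rose by 0.75 (limma, adjusted p = 0.0003). Of 8 tested prefoldin and chaperonin partners 4 fell and 0 rose, where 24.2% of all probe sets fell and 19.0% rose.

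In the endoplasmic reticulum family the median change was -0.39. Hspa5, the Hsp70 of the endoplasmic reticulum, read 2002, 3239 and 5814 on wild-type arrays of number 1 and 1194, 1989 and 2459 on those of number 2. The sets overlapped, and Hspa5 was lower in 8 of 8 wild-type groups (-0.86 ± 0.15, limma, adjusted p = 0.00021). In transgenic muscle it was lower in 5 of 8 (-0.10 ± 0.15). Pdia6 (-0.87 ± 0.14) and Pdia3 (-0.72 ± 0.14), disulfide isomerases, fell (limma, adjusted p = 3.7e-05 and 0.00041). Of the other 2 Pdia6 probe sets, 94209_g_at fell by 0.92 (limma, adjusted p = 2.1e-05) and 94207_at gave -0.23 (limma, adjusted p = 0.27). Also lower were the J proteins Dnajb9 (-0.71 ± 0.13), Dnajb11 (-0.59 ± 0.10) and Dnajc3 (-0.39 ± 0.11), which serve Hspa5, and Hsp90b1 (-0.28 ± 0.10). Their adjusted p were 0.00018, 7.6e-05, 0.0059 and 0.032 (limma). Dnajb9 is also known as a sensitive target of the transcription factor Xbp1, and its other probe set fell by 1.71 (limma, adjusted p = 1.1e-07). Dnajc10, a J protein with disulfide reductase activity, rose (0.32 ± 0.07, limma, adjusted p = 0.0014).

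The promoters of Hspa5 (chr2:34771940-34772089, plus strand), Hsp90b1 (chr10:86705445-86705594, minus strand), Pdia6 (chr12:17266439-17266588, plus strand) and Dnajc3 (chr14:118937782-118937931, plus strand) are shown because they were the 4 of 50 chaperone promoters (8%) that held the endoplasmic reticulum stress element. It was searched as CCAAT and CCACG with 9 bases of any kind between them, on both strands, and was found in 0.137% of all genes. The 4 genes fell on average over both genotypes, though Hsp90b1 passed in neither wild type nor transgenic muscle alone (limma, adjusted p = 0.12 and 0.2). Hspa5 (-0.10 ± 0.15) and Dnajc3 (-0.31 ± 0.15) did not pass in transgenic muscle (limma, adjusted p = 0.67 and 0.16). Of the 4, only Pdia6 passed in each genotype. Dnajb9, Dnajb11 and Pdia3 also fell and held no match. Whether the element has a part in these changes was not tested. Each line gives the 150 bases before the RefSeq start (GRCm38.p6), with the match in capitals. That of Hsp90b1 reads on the opposite strand, and Hsp90b1 has another match further upstream.
Hspa5: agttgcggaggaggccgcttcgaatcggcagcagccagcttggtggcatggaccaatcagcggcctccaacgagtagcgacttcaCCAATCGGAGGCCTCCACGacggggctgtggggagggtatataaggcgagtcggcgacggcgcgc
Hsp90b1: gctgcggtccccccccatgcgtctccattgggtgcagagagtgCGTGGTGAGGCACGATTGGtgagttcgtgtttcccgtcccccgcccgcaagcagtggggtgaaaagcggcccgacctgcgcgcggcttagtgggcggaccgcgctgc
Pdia6: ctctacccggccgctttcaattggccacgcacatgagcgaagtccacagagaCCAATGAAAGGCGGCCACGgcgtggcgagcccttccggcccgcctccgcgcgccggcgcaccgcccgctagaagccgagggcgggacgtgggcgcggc
Dnajc3: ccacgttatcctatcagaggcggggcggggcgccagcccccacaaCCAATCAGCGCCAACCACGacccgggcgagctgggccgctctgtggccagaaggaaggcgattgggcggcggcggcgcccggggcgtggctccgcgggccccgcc

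Other genes of the same response went both ways between the numbers, as did all probe sets, of which 19.0% rose and 24.2% fell. Of 12 tested regulators of the unfolded protein response, 6 fell (Atf4, Atf6, Ddit3, Herpud1, Nupr1 and Xbp1) and 3 rose (Asns, Atf6b and Trib3). Atf4, a translation-controlled transcription factor, fell by 0.60 (SE 0.09; limma, adjusted p = 1.5e-05), and Asns, one of its targets, rose by 0.94 ± 0.09 (limma, adjusted p = 8.8e-08). Xbp1 fell by 0.34 (SE 0.07; limma, adjusted p = 0.00032). Of 17 other endoplasmic reticulum folding genes 4 rose and 4 fell. Among those that rose were the lectin Canx (0.56 ± 0.11) and the disulfide isomerase P4hb (0.58 ± 0.17; limma, adjusted p = 0.00034 and 0.01). Of 15 genes of the immediate early and temperature list 4 rose (Egr2, Fos, Fosb and Jund) and 1 fell (Ier3). No test compared these lists with the chaperone genes.

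Among mitochondrial chaperones Hspe1 fell, and its partner Hspd1 did not pass by its brightest probe set. Hspe1 read 2378, 2994 and 3644 on wild-type arrays of number 1 and 1683, 2160.2 and 2867 on those of number 2. It was lower in 8 of 8 wild-type groups (-0.48 ± 0.10, limma, adjusted p = 0.00079) and in 6 of 8 transgenic ones (-0.26 ± 0.10, limma, adjusted p = 0.061). Hspd1, which forms the chamber that Hspe1 closes, gave 0.27 ± 0.14 over both genotypes (limma, adjusted p = 0.14), while its other probe set, 161140_r_at, rose by 0.93 (limma, adjusted p = 0.00021), so its call depends on the probe set. Dnajc15, a J protein of the inner membrane, fell by 0.49 (SE 0.14; limma, adjusted p = 0.0082), and Hspa9, the mitochondrial Hsp70, gave 0.03 ± 0.06. The region upstream of Hspe1 (chr1:55087998-55088147, plus strand, RefSeq GRCm38.p6) is shown because it lies between the start of Hspe1 and 1 start of Hspd1. Hspd1 is on the opposite strand. The pair of overlapping heat shock element matches, in capitals, lies within the Hspe1 window and an Hspd1 window. Another Hspd1 start lies on the other side of the Hspe1 start, and its window held no match.
Hspe1: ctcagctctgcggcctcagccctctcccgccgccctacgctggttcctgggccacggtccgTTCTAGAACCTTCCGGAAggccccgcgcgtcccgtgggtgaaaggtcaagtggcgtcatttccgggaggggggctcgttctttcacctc

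Of the other 20 J proteins 5 fell and 3 rose, where 24.2% of all probe sets fell and 19.0% rose. Dnajb5 ran from 33.1 to 1265 on wild-type arrays of number 1 and from 22.2 to 38.4 on those of number 2, where every array lay under the scaled signal of 100 used as a floor. On transgenic arrays it ran from 45.5 to 862 and then from 23.3 to 377. Its change of -2.05 ± 0.30 (limma, adjusted p = 1.6e-05) therefore depends on the pseudocount. Dnajb4, a related cytosolic J protein, read 209, 536 and 852 on wild-type arrays of number 1 and 166, 245 and 314 on those of number 2, with overlap. It was lower in 15 of 16 groups (-1.16 ± 0.12, limma, adjusted p = 2.5e-07). Dnajc21, which acts in ribosome assembly, fell by 0.56, Dnajc7, which binds Hsp70 and Hsp90, by 0.34, and Dnajb8 by 0.36 (limma, adjusted p = 4.7e-05, 0.011 and 0.026). Dnajb8 lay near the floor, reaching 100 on 12 of the 36 arrays. Dnajc8, found with splicing factors, rose by 0.55 ± 0.08 and Dnaja2, a general partner of Hspa8, by 0.45 ± 0.08 (limma, adjusted p = 1.7e-05 and 0.00018). Dnajb13 rose by 0.64 ± 0.11 (limma, adjusted p = 0.00014), being higher in 8 of 8 wild-type groups (1.07 ± 0.16) and 5 of 8 transgenic ones (0.21 ± 0.16). This rise rests on 1 probe set, since the other, 162220_r_at, gave -0.08 (limma, adjusted p = 0.65). The other probe set of Dnajc8 gave 0.25 (limma, adjusted p = 0.17).

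**Figure D4:**
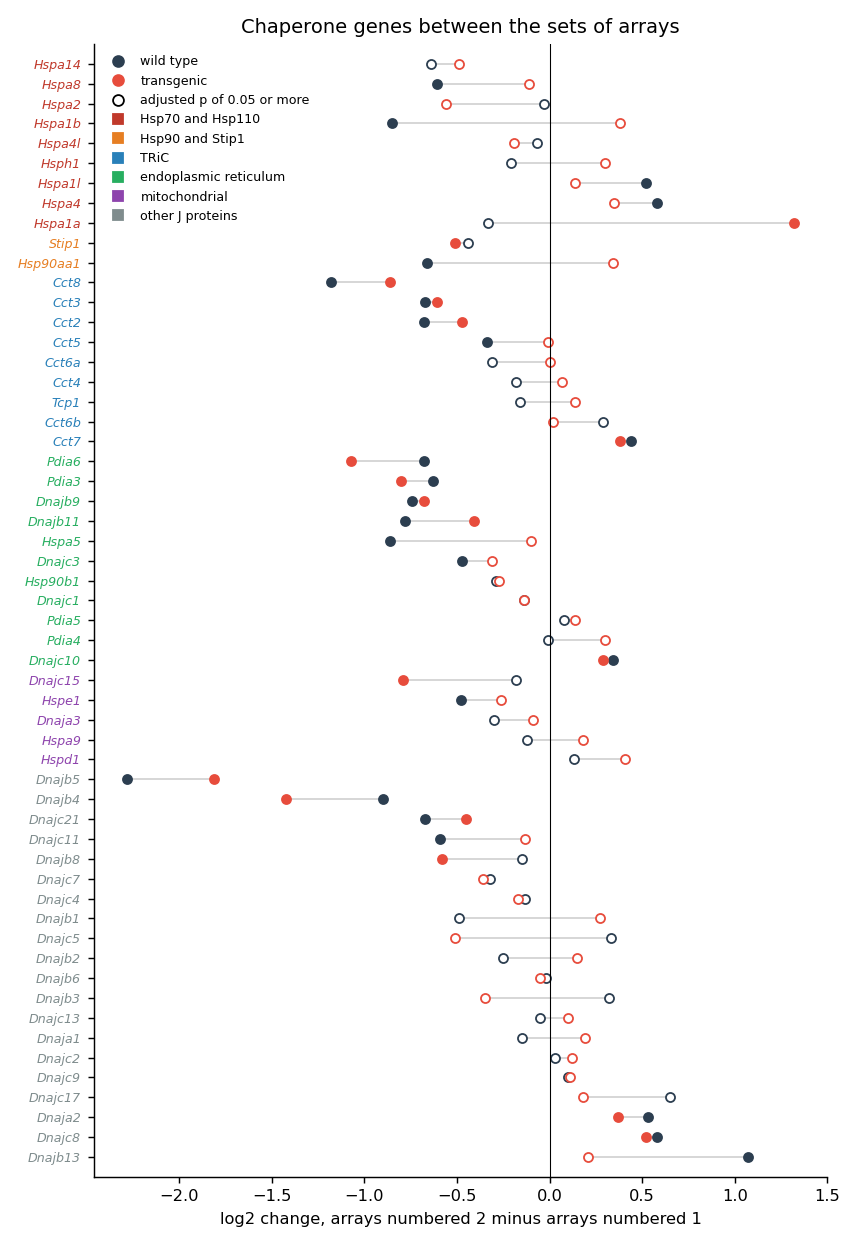
Log2 change from arrays of number 1 to number 2 for the 56 tested chaperone genes in wild-type and transgenic muscle, joined by a line and grouped by family (colour of the name), with filled points past the threshold. In wild type 18 genes are past the threshold to the left and 7 to the right of 0, and Hspa1a, Hspa1b and Hsp90aa1 have wild-type points below and transgenic points above 0.

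A further comparison set wild-type diaphragm, which works at every breath, against the mean of the 4 wild-type limb muscles. The endoplasmic reticulum genes Hsp90b1, Pdia3, Pdia5, Pdia6 and Dnajc3 were higher in diaphragm, as were the cytosolic genes Hsp90aa1, Hspa1b, Hspa4l and Dnaja1. Dnajb6 and Dnajc2 were lower. These 11 were 19.6% of the 56 genes, where 20.8% of all probe sets passed, so the count as a whole was at the background. Upward calls were 9 (16.1% against 10.1%) and downward calls 2 (3.6% against 10.7%).

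Hsp90b1, the endoplasmic reticulum Hsp90, read 2566, 1816, 2366 and 1778 in diaphragm, and on the 14 limb arrays it ran from 627 through a median of 1009 to 1497. No limb array reached the diaphragm level (0.99 ± 0.18, limma, adjusted p = 0.00015). Pdia3 read 903, 448, 747 and 289 in diaphragm against 99.2 to 467 in limb muscle, with overlap (1.05 ± 0.31, limma, adjusted p = 0.016). For Pdia6 the change was 1.01 ± 0.35 and for Pdia5 0.90 ± 0.26 (limma, adjusted p = 0.042 and 0.011). Pdia5 was dim and reached the floor of 100 on 21 of the 36 arrays. Dnajc3 changed by 0.68 ± 0.22 (limma, adjusted p = 0.024), and Hspa5 by 0.55 ± 0.25, which did not pass (limma, adjusted p = 0.14). The other tested Dnajc3 probe sets gave 0.68 and 0.33 and did not pass (limma, adjusted p = 0.075 and 0.49). Those of Pdia6 gave 1.20 and 0.82 and passed (limma, adjusted p = 0.019 and 0.041). Of 17 other endoplasmic reticulum folding genes 7 rose and 1 fell, where 10.1% of all probe sets rose and 10.7% fell.

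Hsp90aa1 read 3465, 1646, 2756 and 1841 in diaphragm and from 513 to 1834 in limb muscle, with a median of 1186 (1.08 ± 0.26, limma, adjusted p = 0.0027). A single limb array, from plantaris at 10 months, exceeded the lowest diaphragm array. Hspa1b read 4676, 619, 1651 and 1516 in diaphragm and from 343 to 1619.9 in limb muscle (1.18 ± 0.34, limma, adjusted p = 0.012). Dnaja1, a general partner of Hsp70, changed by 0.68 ± 0.16, and Hspa4l, of the Hsp110 family, by 0.57 ± 0.18 (limma, adjusted p = 0.0019 and 0.021). Dnajb6 was lower (-0.86 ± 0.15, limma, adjusted p = 8.2e-05), although its other probe set gave 0.17 (limma, adjusted p = 0.5). Dnajc2, a J protein at the ribosome, was lower (-0.63 ± 0.16, limma, adjusted p = 0.004). Its other probe set, 101890_f_at, gave -0.39 and did not pass (limma, adjusted p = 0.19).

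Hepatocyte transcripts moved with this contrast, all 20 tested hepatocyte genes being higher in diaphragm with a median change of 5.26. Of the 11 tested macrophage markers 8 were higher too (summed signal 7439 to 10707 in diaphragm and 3589.9 to 6647 in limb muscle), as were 4 of 6 adipocyte markers (12562 to 20203 and 6598 to 14441) and 6 of 7 slow fibre genes (47712 to 94256 and 2869 to 128889), and 9 of 12 muscle fibre genes were lower (117219 to 198576 and 233728 to 431253). The part of these cells and fibres was not tested. A hepatocyte covariate was fitted, but it varied only among diaphragm arrays and was centred on their mean. It therefore left the mean difference in hepatocyte signal between diaphragm and limb muscle in place. With the hepatocyte signal as a covariate 5 of the 11 calls were left: Hsp90b1 (0.96 ± 0.22), Pdia3 (1.22 ± 0.38), Pdia6 (1.27 ± 0.42), Hspa4l (0.74 ± 0.21) and Dnajb6 (-0.78 ± 0.18; limma, adjusted p = 0.0036, 0.032, 0.048, 0.017 and 0.0036). Hsp90aa1 (0.81 ± 0.30), Hspa1b (0.76 ± 0.38) and Pdia5 (0.65 ± 0.30) did not pass (limma, adjusted p = 0.084, 0.25 and 0.19). Nor did Dnaja1 (0.43 ± 0.17), Dnajc2 (-0.53 ± 0.19) and Dnajc3 (0.73 ± 0.26; limma, adjusted p = 0.11, 0.073 and 0.074). One array weighed on these counts, the diaphragm wild type at 7 months and number 1, without which 4 chaperone genes passed. Over 36 refits that left out 1 array, without the covariate, Pdia6 lost its call in 11. Dnajc3 and Hspa4l lost theirs in 3, Pdia3 and Pdia5 in 2, and Hspa1b and Dnajc2 in 1. Hsp90b1, Hsp90aa1, Dnaja1 and Dnajb6 kept theirs throughout.

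**Figure D5:**
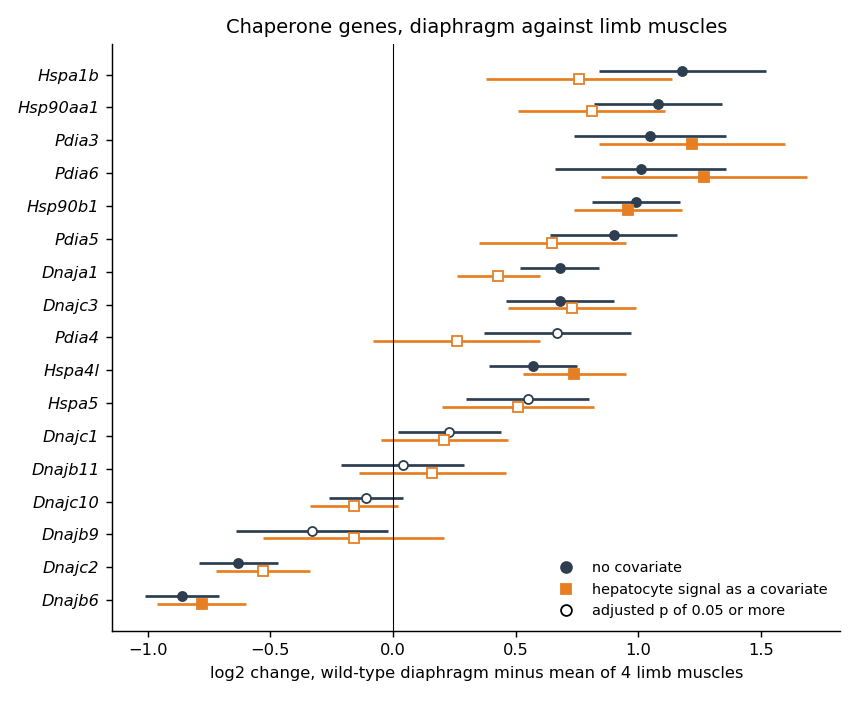
Log2 change (± SE) between wild-type diaphragm and the mean of the 4 wild-type limb muscles for the 11 chaperone genes past the threshold and the other endoplasmic reticulum chaperones, without (circles) and with (squares) the hepatocyte signal as a covariate, with open symbols not past the threshold. The covariate varies only among diaphragm arrays, so it does not remove the difference in hepatocyte signal from limb muscle. Hsp90b1 lies at 0.99 and 0.96, and Dnajb6 at -0.86 and -0.78.

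Over the 5 wild-type muscles an F test passed for 5 chaperone genes (8.9%, against 15.1% of all probe sets). These were Dnajb6, Hsp90b1, Hsp90aa1, Dnaja1 and Tcp1 (limma, adjusted p = 0.00063, 0.0029, 0.0084, 0.015 and 0.028). Tcp1 ran from 79.9 to 255 in extensor digitorum longus, 288 to 401 in diaphragm, 296 to 406 in gastrocnemius, 185 to 521 in tibialis anterior and 445 to 546 in plantaris. Extensor digitorum longus lay below diaphragm, gastrocnemius and plantaris without overlap, plantaris lay above diaphragm and gastrocnemius without overlap, and tibialis anterior overlapped all 4. For Hsp90aa1 the order of the means was diaphragm (2427 ± 845, SD, n = 4), plantaris (1616 ± 189.8, n = 3), gastrocnemius (1132 ± 479, n = 4), extensor digitorum longus (1081 ± 206, n = 3) and tibialis anterior (824 ± 308, n = 4). The last 3 overlapped in their arrays, and gastrocnemius and plantaris did too. With the limb muscles alone no chaperone gene passed.

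With age no chaperone gene passed between 7 and 10 months, averaged over muscles and genotypes, and 0% of all probe sets did (limma). At an unadjusted p under 0.05 there were 4 of the 56 and 776 of the 9322. The largest changes were -0.51 ± 0.17 for Dnajc5, a synaptic vesicle J protein, -0.44 ± 0.16 for Dnajb1 and -0.44 ± 0.25 for Hspa1a (limma, adjusted p = 0.44, 0.49 and 0.67).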

How the data were processed

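Values were the signal intensities deposited by the authors for 12488 probe sets on 36 arrays, made with MAS5 per the submitters' processing notes and not log-transformed, with settings that the labels do not state. The deposited scanner records are text and not measurements; per the file headers they gave scan days for arrays of number 1 only. Arrays have no read depth, and their number limits the precision. Each array was rescaled to a 2% trimmed mean of 500, 66 control probe sets were left out, and log2(signal + 50) was tested for the 9322 probe sets at or above 100 on at least 6 arrays. limma 3.58.1 (R 4.3.3, statmod 1.5.0) with an intensity trend was fitted to all arrays: muscle by genotype means with an age effect for each muscle (genotype, muscle and age results), or 20 group means with an effect of array number in each genotype (all results by number). Adjustment was by Benjamini-Hochberg over all tested probe sets in each comparison, at 0.05. The fits were tested on simulated data. Symbols came from the array annotation (10833 probe sets with 1 symbol, 10817 matched by gene ID).

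Members, families, companion lists and markers were chosen with earlier results of these data known. Named genes were all chaperone genes past the threshold, otherwise those with the largest changes or highest signal, and companions past the threshold. Same-numbered arrays would count as pairs only if their deviations correlated over 0.1 in every pair of groups, which held in 117 of 120 (lowest 0.0066, median 0.33, highest 0.70). Same-numbered arrays thus tended to deviate together, but this condition was not met. The model of genotype, muscle and age therefore kept no replicate block, and the deviation shared by same-numbered arrays stayed in its residual spread. The model by number held an effect of array number in each genotype. The tested alternatives are given at the end.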

Additional observations from a re-analysis of the deposited data

Results flagged for a closer look

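Among 54 groups of 4 arrays (9 genes in 6 groups of muscle and genotype), 2 held an array far from the other 3, and chance alone sets apart about 1 in 20 such groups. Both were for Dnajb13. On the wild-type diaphragm array of 7 months and number 2 it read 1030.2, where the nearest of the other 3 read 318. On the transgenic diaphragm array of 10 months and number 2 it read 575, where the nearest read 294.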

How the results depend on the processing

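Of 1126 recalculations of 100 gene results, 1013 kept direction and call, 113 lost the call and 0 changed direction; of 183 recalculated counts of chaperone genes past the threshold, 160 stayed within 1.5 times. The cause of the following differences was not tested. Genotype averaged over muscles (2 genes) gave 9 with the replicate block (7 higher, 2 lower, both genes among them), 13 with scan day as a block, 1 with a random block for shared pools, 6 with array weights and 0 with limb muscles alone. Over all probe sets the same settings gave 594, 973, 20, 444 and 31 in place of 109. Genotype in diaphragm (2) gave 0 with the hepatocyte covariate, and in tibialis anterior (0) 1 with scan day. Diaphragm against limb (11) gave 17 with the replicate block (the 11 among them) and 5 with the hepatocyte covariate. The wild-type muscles (5) gave 15 with the replicate block, 3 with 20 group means, 13 with shared pools, 3 with the hepatocyte covariate and 0 with limb muscles alone. Array number in transgenic muscle (18) gave 11 with shared pools. Genotype at number 1 (1) gave 3 with an age effect for each muscle and 0 with scan day. Genotype at number 2 (8) gave 15 with scan day, 2 with shared pools, 3 without high Gapdh ratios, 2 with limb muscles alone and 0 with those arrays fitted alone. Genotype by number (0) gave 1 with an age effect for each muscle. The replicate block moved no other count beyond 1.5 times, and scan day could not be estimated for array number.

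Leaving out each array in turn, the count ran from 2 to 5 for genotype averaged over muscles (5 without tibialis anterior wild type 10 months number 1), 2 to 3 in diaphragm, 0 to 0 in each limb muscle and for age, 4 to 13 for diaphragm against limb, 3 to 8 for the wild-type muscles (3 without diaphragm wild type 7 months number 1, 8 without number 2), 26 to 29 for array number (22 to 30 in wild type, 13 to 18 in transgenic), 1 to 2 for genotype at number 1, 4 to 13 at number 2, and 0 to 1 for their difference (1 without either diaphragm wild type 10 months array).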
